A study of Mus musculus with 9 samples.

Results

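The 7 beta tubulin isotype genes *Tubb2a*, *Tubb2b*, *Tubb3*, *Tubb4a*, *Tubb4b*, *Tubb5* and *Tubb6* were followed across an RNA sequencing experiment on mouse glioma. They were chosen by symbol, as 7 of the 24421 rows of the gene count table. The rule used no measured value, but earlier results of these data were known when it was made. The table held 9 libraries in 3 groups of 3. Control and BAL101553 libraries came from SB28 glioma cells, a transplantable mouse line that carries GFP and luciferase and was grown in the brains of young adult C57BL/6J mice given vehicle or BAL101553 (lisavanbulin) by oral gavage. Per the study's methods the tumor cells were recovered ex vivo and sorted as GFP-positive cells without the leukocyte markers CD45 and CD11b, whereas the labels call the tumor samples whole tissue. The remaining group is labelled as astrocytes from C57BL/6 brain with BAL101553 as the treatment, and how those cells were isolated is not given in the sources used here. No untreated astrocyte libraries were analysed here, so astrocytes could be set beside treated tumor cells only. Treated tumors were harvested later than control tumors, so that treatment and time of growth cannot be told apart.

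Beta tubulin pairs with alpha tubulin, and the heterodimers polymerize into the microtubules of the mitotic spindle, the axon and the cilium. Mammals use several beta isotype genes whose products are alike over most of their length and differ mainly in an acidic tail at the carboxyl end, and cell types differ in which genes they use. BAL101553 is a prodrug of BAL27862 (avanbulin), which binds tubulin and disrupts microtubules. Cells also hold tubulin levels in check through a loop in which TTC5 recognizes the first residues of a nascent tubulin chain and its mRNA is then degraded when free heterodimers are in excess. RNA decay, protein and polymer were not measured here.

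The start and the end of the coding sequence are shown because the start is what that loop reads and the end is where isotypes differ. The sequences were read 5′ to 3′ from GENCODE vM21 transcripts on GRCm38, the build of the mm10 name in the submitters' processing notes. In the first 30 coding bases, capitals mark the first 4 codons:
Tubb5: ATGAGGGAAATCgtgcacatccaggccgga
Tubb4b: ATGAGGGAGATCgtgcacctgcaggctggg
Tubb2b: ATGCGAGAGATCgtgcacattcaggcgggc
Tubb2a: ATGCGCGAGATCgtgcacatccaggcgggc
Tubb3: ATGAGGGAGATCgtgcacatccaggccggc
Tubb4a: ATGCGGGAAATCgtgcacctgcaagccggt
Codon choice differed between genes, yet the first 4 codons encoded the same residues in all 7 members, *Tubb6* included. Over the annotation, 9 of 21590 coding genes (0.0417%) had an annotated coding transcript that began this way. Those outside the members were *Tubb1*, a beta tubulin of platelets, and *Ing1*. In the last 63 coding bases, capitals mark the stop codon:
Tubb5: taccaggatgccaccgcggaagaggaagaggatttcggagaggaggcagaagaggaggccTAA
Tubb4b: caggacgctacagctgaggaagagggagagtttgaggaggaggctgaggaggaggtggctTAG
Tubb2b: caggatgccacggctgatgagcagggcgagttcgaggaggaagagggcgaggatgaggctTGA
Tubb2a: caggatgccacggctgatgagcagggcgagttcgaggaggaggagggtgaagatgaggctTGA
Tubb3: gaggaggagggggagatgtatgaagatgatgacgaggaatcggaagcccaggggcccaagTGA
Tubb4a: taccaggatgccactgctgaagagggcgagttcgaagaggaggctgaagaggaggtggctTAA
Over the whole coding sequence, identity across the 21 pairs ran from 80.3% (*Tubb5* with *Tubb6*) to 96.5% (*Tubb2a* with *Tubb2b*).

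All 7 genes had 4 exons. *Tubb5* lies on chromosome 17 (35833921 to 35838306, minus strand), as does *Tubb4a* (57080066 to 57087782, minus strand). *Tubb2a* (34074274 to 34078007) and *Tubb2b* (34126748 to 34130466) are neighbours on the minus strand of chromosome 13. *Tubb3* lies on chromosome 8 (123411424 to 123422015, plus strand). *Tubb4b* lies on chromosome 2 (25222160 to 25224702, minus strand), and *Tubb6* on chromosome 18 (67390717 to 67402749, plus strand).

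Likeness limits how exactly reads can be given to a gene. Of all windows of 50 bases, the length of the reads, 49.6% of those in *Tubb2a* transcripts and 39.3% of those in *Tubb2b* transcripts also occurred in another gene, mostly in each other. For *Tubb4b* this share was 50.9%, mostly with the pseudogene *Tubb4b-ps1* (43.6%) and not with another member. It was 0.184% for *Tubb4a*, 0.115% for *Tubb5*, and 0 for *Tubb3* and *Tubb6*. Levels of *Tubb2a*, *Tubb2b* and *Tubb4b* are therefore given as uncertain, whereas the other members shared few or no exact windows. The windows came from the principal transcript of each gene and were matched exactly to annotated transcripts. Reads aligned with mismatches, and copies outside the annotation, were not examined. The pseudogene *Tubb2a-ps2*, which has its own row, had 0 reads in every library. Reads on *Tubb4b-ps1*, which shares far more windows with a member, were not examined.

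Libraries held 24540452 to 28761388 reads on genes in controls, 26667789 to 34013875 after BAL101553 and 22919523 to 29230743 in astrocytes. Marker genes bore out the astrocyte label only in part. Summed levels, as read counts scaled to library size (CPM), of 7 astrocyte markers were 12078 to 14842 in the libraries labelled astrocytes, but those of 6 oligodendrocyte markers were 10498 to 13039 in the same libraries. They are therefore called the libraries labelled astrocytes where that bears on a result, and the word astrocytes elsewhere stands for that label only. In control tumor libraries *Aqp4* averaged 0.179 CPM and *Gfap* 0.320 CPM. The astrocyte list summed to 923 to 965 CPM in controls and 671 to 786 CPM after BAL101553, nearly all of it *Gja1*. Of its 5 genes that could be tested, 1 was lower and 1 higher. *Gja1* was lower (log2 fold change -0.37, edgeR adjusted p = 0.0363). *Slc1a3*, at means of 0.628 and 1.87 CPM, was higher (1.57, edgeR adjusted p = 0.0403). Some further lists also differed between the tumor groups, mainly through single genes. The 10 microglia and macrophage genes summed to 158 to 287 CPM in controls and 308 to 380 CPM after BAL101553, mostly *Tmem119*, with *Ptprc* at 0.210 and 0.149 CPM on average. *Tmem119* did not pass (log2 fold change 0.69, edgeR adjusted p = 0.0631). *P2ry12*, at means of 1.73 and 0.457 CPM, was lower (-1.88, edgeR adjusted p = 0.0313). In the libraries labelled astrocytes the same 10 genes summed to 530 to 1133 CPM. There all of them but *Tmem119*, at a mean of 47.9 CPM, averaged higher than in either tumor group. The 5 endothelial genes summed to 723 to 852 CPM in controls and 511 to 636 CPM after BAL101553, mostly *Cdh5*, with *Pecam1* at 0.847 and 0.525 CPM. *Cdh5* was lower (log2 fold change -0.52, edgeR adjusted p = 0.0195), and the other endothelial genes did not pass. The oligodendrocyte precursor pair, *Pdgfra* and *Cspg4*, summed to 225 to 430 and 461 to 599 CPM. *Pdgfra* was higher (0.95, edgeR adjusted p = 0.0134), and *Cspg4* did not pass (0.80). The part of these lists in the beta tubulin values was not tested. The study calls its sequencing replicates biological, but the labels tie no library to an animal, so p-values measure the spread between these libraries. Libraries of a group differed by more than counting noise, with chi-square per degree of freedom of 14.3 to 64.9 over pairs. Reads were compared within a gene as CPM with trimmed-mean (TMM) scaling, and between genes as CPM per kilobase of annotated exon.

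The first question was which isotypes the tumor cells used. In control tumor cells *Tubb5* and *Tubb6* were the leading beta tubulins, followed by *Tubb4b*, and the 3 isotypes known from neurons were low. Per kilobase of exon, control levels were 554 ± 36.6 CPM for *Tubb5* (SD, n = 3, as for the values that follow), the isotype of most dividing cells. *Tubb6*, a broadly expressed isotype that is usually minor in brain, stood at 375 ± 25.9 CPM per kilobase. *Tubb4b*, widely expressed and abundant in cilia, stood at 200 ± 22.9. No control library overlapped between these 3 genes.

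The order of the low isotypes could not be settled. On the same per-kilobase scale, control libraries ranged from 27.0 to 38.0 CPM for *Tubb2b*, from 25.5 to 28.3 for *Tubb2a* and from 23.3 to 29.99 for *Tubb3*, which overlap. *Tubb2a* and *Tubb2b* are class II isotypes of neurons and *Tubb3* is a widely used neuronal marker also seen in cancers. *Tubb4a*, an isotype of brain that oligodendrocytes and neurons use, was at 0.345 ± 0.0709 CPM per kilobase. That value rested on 15 to 21 reads per library.

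**Figure D1:**
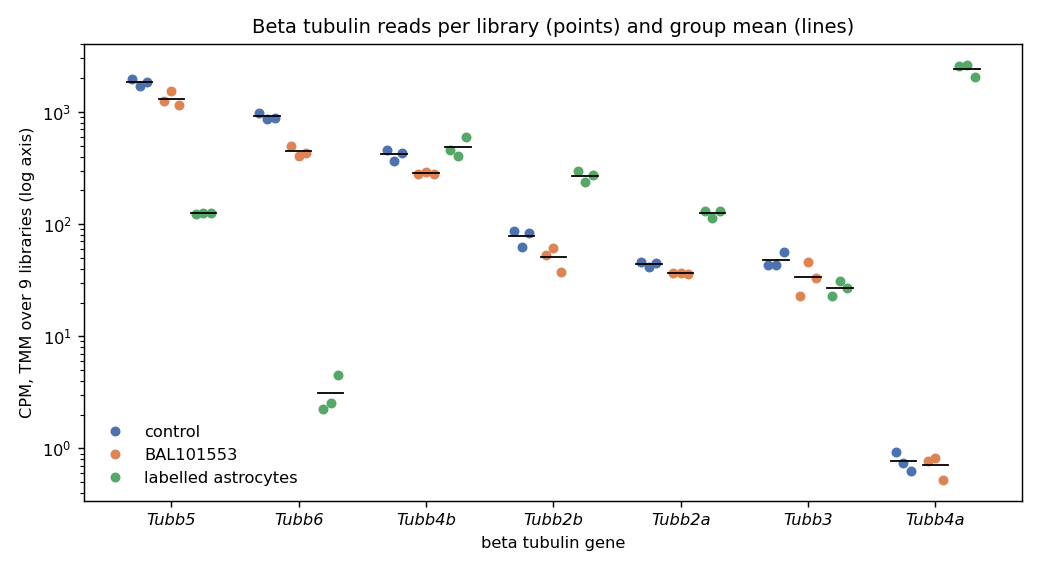
Level of each beta tubulin gene in each library, as CPM with TMM scaling over the 9 libraries on a log axis; points are libraries and lines are group means (n = 3). *Tubb5* and *Tubb6* lie far higher in both tumor groups than in the libraries labelled astrocytes, where *Tubb6* is at 2.24 to 4.55 CPM. In those libraries, which also carry oligodendrocyte markers, *Tubb4a* lies at 2037 to 2635 CPM against less than 1 CPM in tumor cells.

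After BAL101553 the leading tumor isotypes were lower. *Tubb6*, *Tubb4b* and *Tubb5* fell in the test, and none of the 7 was called higher. *Tubb6* was 2.05-fold lower, and the estimates for *Tubb5* and *Tubb4b* were smaller. Beta tubulin took 0.290% to 0.327% of all gene reads in controls and 0.2004% to 0.228% after BAL101553, and the ranges did not overlap.

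*Tubb6* read 987, 871 and 887 CPM in control libraries 1 to 3 and 501, 406 and 427 CPM after BAL101553. Every treated library was below every control, and the gap between groups was wider than the spread inside either. Its log2 fold change was -1.03 (SE 0.11, 95% interval -1.29 to -0.78, edgeR quasi-likelihood adjusted p = 0.00608). *Tubb6* remained called in each of the 6 fits that left out 1 library, with log2 fold changes of -1.13 to -0.97 and adjusted p of 0.00887 to 0.0366. When 1 library was left out of each group, it was called in 5 of 9 fits, with adjusted p of 0.0133 to 0.125. In the 4 fits without the call its log2 fold change was -1.15 to -0.94. Only 1 to 17 of all genes tested were called in those fits.

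*Tubb5* read 1961, 1718 and 1848 CPM in controls and 1244, 1531 and 1164 CPM after BAL101553. The groups did not overlap, and treated library 2 lay nearest to the controls. The log2 fold change was -0.48 (SE 0.13, 95% interval -0.77 to -0.19, adjusted p = 0.0425 by edgeR). This call was lost in most fits that left out 1 library. It held without BAL101553 library 2 (adjusted p = 0.0174) and was lost without any one of the other 5, with adjusted p of 0.120 without control 1, 0.0626 without control 2, 0.127 without control 3, 0.106 without BAL101553 1 and 0.114 without BAL101553 3. Its log2 fold change in those 5 fits was -0.54 to -0.40. Genes called over all genes tested were 193 to 1260 there, against 1860 in the reported fit.

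*Tubb4b* read 460.02, 366 and 429 CPM in controls and 278, 291 and 282 CPM after BAL101553. Treated libraries lay close together and below all controls. The log2 fold change was -0.55 (SE 0.10, 95% interval -0.79 to -0.31, adjusted p = 0.0182 by edgeR). This call was lost without control 1 (adjusted p = 0.0599), control 3 (0.0769) or BAL101553 3 (0.0548). The log2 fold change in those fits was -0.55 to -0.49, and 193 to 668 of all genes tested were called. As given above, about 1 in 2 of its read-length windows is shared with pseudogenes, and how such reads were counted was not tested.

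The neuronal isotypes did not pass the test in the reported fit. *Tubb2b* read 87.2, 62.0 and 84.0 CPM in controls and 52.9, 61.5 and 37.2 CPM after BAL101553, a log2 fold change of -0.61 (SE 0.20, 95% interval -1.08 to -0.15, edgeR adjusted p = 0.0754). Control 2 and treated library 2 differed by less than 1 CPM, so the absence of overlap there is narrow. *Tubb2b* did pass with DESeq2 (adjusted p = 0.0207), with all 9 libraries in one edgeR model (0.0431) and without BAL101553 library 2 (0.0430). *Tubb2a* read 45.5, 41.1 and 45.4 CPM in controls and 36.7, 36.9 and 35.7 CPM after BAL101553, a log2 fold change of -0.26 (SE 0.092, adjusted p = 0.0869 by edgeR), and passed only with all 9 libraries in one model (0.0459). Summed into one row, which removes the division of counted reads between the pair but restores none left uncounted, they gave -0.48 (SE 0.14, edgeR adjusted p = 0.0587).

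*Tubb3* read 43.5, 43.4 and 56.0 CPM in controls and 22.7, 46.0 and 33.2 CPM after BAL101553. The groups overlapped, with treated library 2 above controls 1 and 2, and the log2 fold change was -0.48 (SE 0.24, 95% interval -1.04 to 0.07, edgeR adjusted p = 0.199). Without that library it was -0.76 with adjusted p = 0.0425. The 9 listed neuron markers followed *Tubb3* in some libraries and not in others. They summed to 43.4, 60.0 and 106 CPM in controls and 43.0, 18.9 and 40.9 CPM after BAL101553. Control library 3 had the highest *Tubb3* and the highest marker sum of all tumor libraries. Among treated libraries, library 2 had the highest *Tubb3* and the lowest marker sum. *Rbfox3* was at 0 in all 6 tumor libraries. Of the 5 markers that could be tested, *Nefm* was lower (log2 fold change -2.27, edgeR adjusted p = 0.0189), whereas *Nefl* (-2.14), *Stmn2* (-0.21), *Syt1* (0.19) and *Gad1* (1.11) did not pass. Group means were 24.3 and 5.43 CPM for *Nefl*, and 21.2 and 18.2 CPM for *Stmn2*, which made up most of the treated sum. The part of these genes in the *Tubb3* values was not tested. *Tubb4a* read 0.938, 0.744 and 0.625 CPM in controls and 0.776, 0.821 and 0.523 CPM after BAL101553, which is too few reads to show a change (log2 fold change -0.12, SE 0.34, 95% interval -0.91 to 0.67).

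In all, 3 of 7 members were called lower and 0 higher by edgeR, while 6.09% of the 12633 genes tested were called lower, 8.64% higher and 14.7% in either direction. All 7 estimates lay below 0, but the direction of *Tubb4a* is not settled and the *Tubb3* libraries overlapped between the groups. DESeq2 called 4 members lower and 0 higher, with *Tubb2b* as the added one, and called 2832 of the 12633 genes where edgeR called 1860. The CPM ranges of 5 of 7 members did not overlap and were lower after BAL101553, and those of 0 members were higher. These ranges hold for TMM scaling over all libraries, and *Tubb2b* among the 5 is the narrow case given above. Over all genes tested, ranges did not overlap for 39.7%, of which 19.7% of all genes were lower and 20.0% higher. The median log2 fold change was 0.02 over all genes tested and -0.48 over the members.

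**Figure D2:**
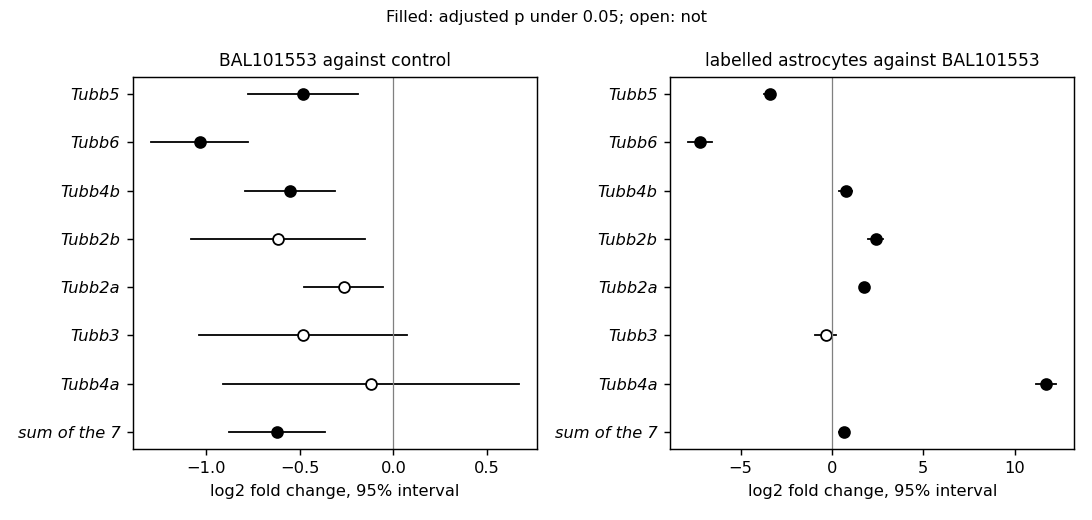
Log2 fold change of each isotype and of the sum of the 7 in the 2 comparisons, from edgeR, with 95% intervals; filled points passed an adjusted p under 0.05. Only *Tubb6*, *Tubb4b*, *Tubb5* and the sum are filled in the comparison of BAL101553 with control, with *Tubb6* at -1.03.

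The sum of the 7 genes does not depend on how counted reads were divided between them. It stood at 3585, 3101 and 3350 CPM in controls and 2137, 2373 and 1979 CPM after BAL101553, so that every treated library was below every control. The log2 fold change was -0.62 (SE 0.11, 95% interval -0.88 to -0.37, edgeR adjusted p = 0.0158). Leaving out control 1, control 3 or BAL101553 3 gave -0.58, -0.63 and -0.56 with adjusted p of 0.0571, 0.0666 and 0.0514. Of the fall of 1182 CPM between group means, *Tubb5* made up 44.7%, *Tubb6* 39.8% and *Tubb4b* 11.4%, and the rest came from *Tubb2b*, *Tubb3* and *Tubb2a*. In bulk libraries, fewer cells with a transcript and less of it per cell cannot be told apart.

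**Figure D3:**
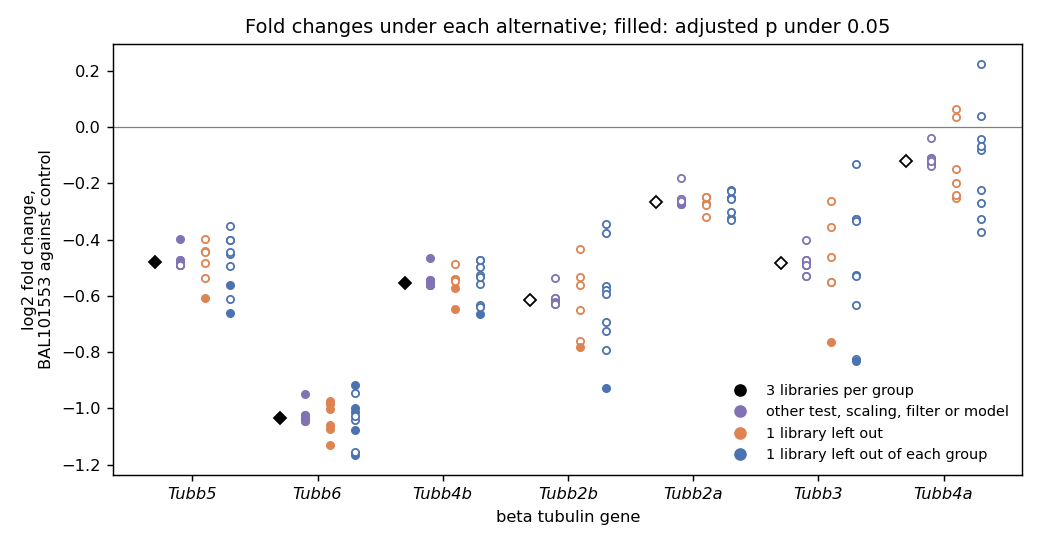
Log2 fold change of each isotype between BAL101553 and control tumor cells; diamonds are the reported fits, circles are alternative tests, scalings, filters and models or fits with libraries left out, and filled symbols passed an adjusted p under 0.05. *Tubb6* spans -1.17 to -0.92, *Tubb5* turns from filled to open when most single libraries are left out, and *Tubb4a* lies on both sides of 0.

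Within the beta tubulin total, *Tubb6* held a smaller share and *Tubb5* a larger one in each treated library than in any control. *Tubb6* took 27.5%, 28.1% and 26.5% of summed beta tubulin reads in controls and 23.5%, 17.1% and 21.6% after BAL101553, a difference of -6.65 percentage points (SE 1.93). *Tubb5* took 54.7%, 55.4% and 55.2% in controls and 58.2%, 64.5% and 58.8% after BAL101553, a difference of 5.43 points (SE 2.02). Neither share overlapped between the groups, and without treated library 2 the differences were -4.85 and 3.44 points. For 3 against 3 libraries the exact two-sided permutation test over libraries cannot go below 0.1, and it gave p = 0.1 for both, so that no share could pass.

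The other shares differed by less. *Tubb2a* took 1.32% ± 0.0437 in controls and 1.69% ± 0.125 after BAL101553 (SD, n = 3, exact permutation p = 0.1), without overlap. *Tubb4b* took 12.5% and 13.2%, a difference of 0.697 points (SE 0.670, exact permutation p = 0.4, n = 3). *Tubb2b* and *Tubb3* had overlapping shares, and *Tubb4a* took at most 0.0363% in tumor libraries. The ratio of *Tubb5* to *Tubb6* reads was 1.99, 1.97 and 2.08 in controls and 2.48, 3.77 and 2.73 after BAL101553. Treated library 2 had the highest ratio. On the log2 scale the ratio of *Tubb6* to *Tubb5* differed by -0.55, with an exact permutation p = 0.1. Per kilobase of exon, *Tubb6* made up 30.9% of the beta tubulin total in controls and 23.7% after BAL101553, and *Tubb5* 45.5% and 50.7%.

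**Figure D4:**
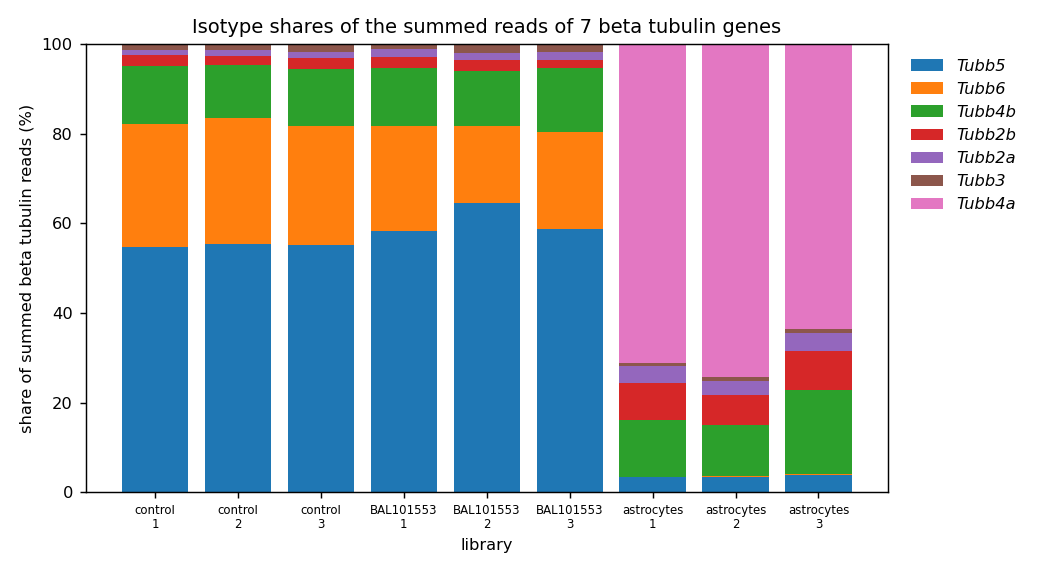
Share of each isotype in the summed reads of the 7 beta tubulin genes, in percent, for each of the 9 libraries. *Tubb5* and *Tubb6* fill most of the tumor bars, and the *Tubb6* band is narrower in each treated tumor library than in any control. *Tubb4a* fills 63.6% to 74.2% of the bars labelled astrocytes, whose libraries also carry oligodendrocyte markers.

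The partners and helpers of beta tubulin were then examined over 37 genes, of which 33 could be tested. Of these 11 were lower after BAL101553, 0 were higher and 22 did not pass, where 6.09% of all genes tested were lower, and their median log2 fold change was -0.28 against 0.02 over all genes. Alpha tubulins were lower in 3 of 5 tested genes. *Tuba1a* went from a mean of 1311 to 754 CPM (log2 fold change -0.79, SE 0.12, adjusted p = 0.0112), *Tuba1c* from 334 to 194 CPM (-0.78, SE 0.10, adjusted p = 0.00787) and *Tuba1b* from 742 to 472 CPM (-0.65, SE 0.10, adjusted p = 0.0125), by edgeR. *Tuba4a* and *Tuba8* did not pass. As summed reads, alpha to beta tubulin stood at 0.762, 0.758 and 0.732 in controls and 0.787, 0.623 and 0.712 after BAL101553, and the difference was within the spread of libraries (exact permutation p = 0.6).

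Some genes of each folding complex passed. The CCT chaperonin, which folds new tubulin, had 3 of 8 subunit genes lower, with *Cct7* at -0.50 (SE 0.085, adjusted p = 0.0140) and *Cct4* at -0.43 (SE 0.092, adjusted p = 0.0246), both by edgeR, and *Tcp1*. Prefoldin, which hands tubulin to CCT, had 3 of 6 lower, with *Pfdn5* at -0.46 (SE 0.12, edgeR adjusted p = 0.0409), *Pfdn1* and *Pfdn4*. Among 7 folding cofactors and release factors only *Tbcb* was lower, and of 4 tested gamma, delta and epsilon tubulins none passed. In the autoregulation loop, *Ttc5* had a log2 fold change of -0.04 (SE 0.12, edgeR adjusted p = 0.824), *Scaper*, which joins TTC5 to the deadenylase, had 0.30 without passing, and *Cnot11*, the deadenylase subunit that is recruited, was lower at -0.37 (adjusted p = 0.0293 by edgeR). *Tcp1*, *Pfdn1*, *Pfdn4*, *Tbcb*, *Scaper* and *Cnot11* are named here after their values were seen. The number of genes called in this list varied from 1, without control 3, to 18, with all 9 libraries in one model. Over all genes tested, 193 of 12871 and 3022 of 15408 were called in those 2 fits. Dividing-cell markers were at 770 to 796 CPM in controls and 696 to 878 CPM after BAL101553, and 0 of 8 passed.

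**Figure D5:**
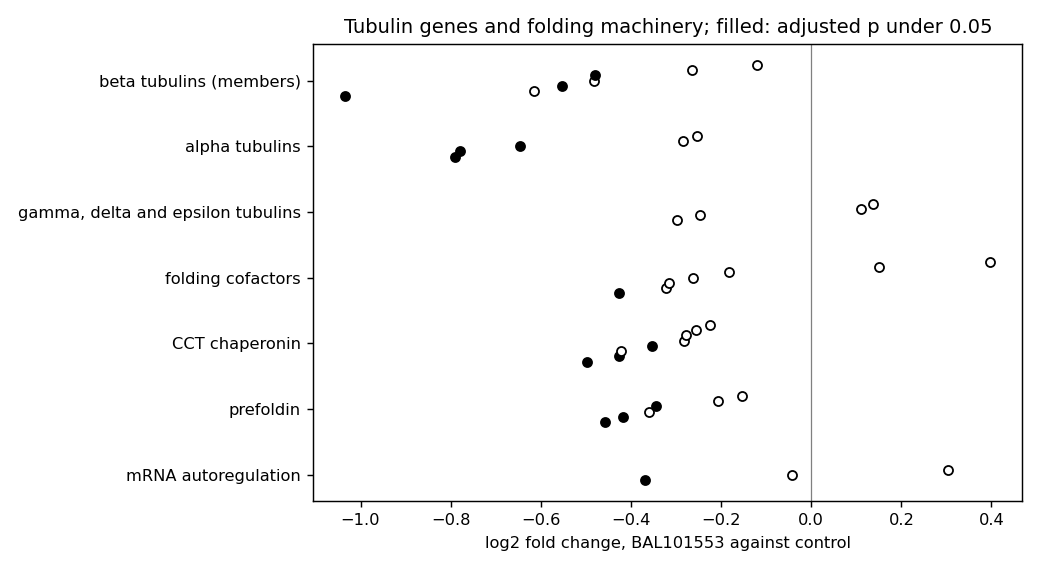
Log2 fold change between BAL101553 and control tumor cells (horizontal axis, edgeR) of each tested beta tubulin and pathway gene, 1 point per gene in a row for its role; filled points passed an adjusted p under 0.05. The filled alpha tubulin points are *Tuba1a*, *Tuba1c* and *Tuba1b* at -0.79, -0.78 and -0.65, and no filled point lies above 0.

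Some genes followed the isotypes closely over the 6 tumor libraries. By Pearson correlation of log2 CPM across 8987 genes, those most like the beta tubulin sum were *Bag3* (r = 0.998), *Prmt6* (0.997), *Echs1* (0.996), *Uba1* (0.996) and *Cox5a* (0.996). Those most like *Tubb6* were *Sh3kbp1* (0.9997), *Tuba1c* (0.999), *Nme1* (0.998), *Mcf2l* (0.996) and *Eif6* (0.996). These are descriptions over 6 libraries that share the difference between the groups, chosen as the highest of many, and carry no test.

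The libraries labelled astrocytes, which also carry oligodendrocyte markers and, at lower levels, microglia markers, held another set of isotypes. *Tubb4a* read 2549, 2635 and 2037 CPM in the libraries labelled astrocytes against 0.523 to 0.821 CPM in BAL101553 tumor cells, a log2 difference of 11.71 (SE 0.24, edgeR adjusted p = 1.02e-08). It was the leading isotype there, with 1080 ± 145 CPM per kilobase, ahead of *Tubb4b* at 234 ± 49.3, *Tubb2b* at 118 ± 13.2, *Tubb2a* at 77.7 ± 6.11, *Tubb5* at 37.6 ± 0.489, *Tubb3* at 14.5 ± 2.21 and *Tubb6* at 1.28 ± 0.514 (SD, n = 3). No neighbours in that order overlapped between libraries.

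*Tubb6* read 2.24, 2.55 and 4.55 CPM in the libraries labelled astrocytes against 406 to 501 CPM in treated tumor cells, a log2 difference of -7.21 (SE 0.28, edgeR adjusted p = 1.51e-07). *Tubb5* read 123, 126 and 126 CPM against 1164 to 1531 CPM, a log2 difference of -3.42 (SE 0.13, edgeR adjusted p = 1.19e-07). Both leading tumor isotypes were thus at a small fraction of their tumor level. *Tubb2b* read 297, 237 and 276 CPM in the libraries labelled astrocytes, 2.39 higher than in treated tumor cells on the log2 scale (SE 0.18, adjusted p = 5.49e-06 by edgeR). *Tubb2a* read 131, 114 and 131 CPM, 1.74 higher (SE 0.084, edgeR adjusted p = 4.39e-07). *Tubb4b* read 454, 406 and 603 CPM, 0.75 higher (SE 0.15, adjusted p = 0.00151 by edgeR), the smallest difference of those that passed.

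*Tubb3* read 23.0, 31.2 and 27.1 CPM and overlapped treated tumor cells, with a log2 difference of -0.36 (SE 0.24, 95% interval -0.91 to 0.20, edgeR adjusted p = 0.193). Without BAL101553 library 1 it was -0.60 with adjusted p = 0.0201. In all, 4 of 7 members were called higher and 2 lower, where 46.3% of the 15314 genes tested were called higher, 38.9% lower and 85.1% in either direction, so that these counts are near the background. CPM ranges did not overlap for 6 of 7 members, 4 higher and 2 lower, as for 87.9% of all genes (48.7% higher and 39.2% lower). The median of all genes tested was 0.18 with TMM scaling and 0.39 with library totals, and the direction of each called member was the same under every scaling tried.

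The sum of the 7 read 3579, 3552 and 3205 CPM in the libraries labelled astrocytes, 0.64 higher than in treated tumor cells on the log2 scale (SE 0.12, edgeR adjusted p = 0.00110). Control tumor cells, at 3101 to 3585 CPM, covered the same range, though that pair of groups was not tested. In shares of summed reads in the libraries labelled astrocytes, *Tubb4a* took 71.2%, 74.2% and 63.6%, *Tubb5* 3.45% to 3.93% and *Tubb6* 0.0626% to 0.142%. *Tubb4b* took 14.3% against 13.2% in treated tumor cells (exact permutation p = 0.9, n = 3), and its difference turned from 1.14 to -2.46 points when reads were divided by exon length. Divided by the length of the principal transcript instead, its share was 18.6% against 18.0%, without that turn.

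Oligodendrocyte markers moved beside *Tubb4a*. The 6 listed genes summed to 12546, 13039 and 10498 CPM in astrocyte libraries 1 to 3, the same order of libraries as *Tubb4a*, and to 15.1 to 20.5 CPM in tumor libraries. Tumor libraries held *Tubb4a* at 0.0217% to 0.0390% of its mean in the libraries labelled astrocytes. For *Mbp* this was 0.0287% to 0.0452% and for *Mog* 0.0228% to 0.0486%, but for *Cnp* 0.403% to 0.528%. What part of the *Tubb4a* level came from oligodendrocytes was not tested.

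In the libraries labelled astrocytes 19 of the 33 tested partner and helper genes were lower than in treated tumor cells, 10 were higher and 4 did not pass, with a median of -0.88 against 0.18 over all genes. Over all genes 38.9% were lower, 46.3% higher and 85.1% called in either direction, so that being called at all is near the background here. All 8 CCT genes were lower, with *Cct5* at -2.19 (SE 0.098, edgeR adjusted p = 3.10e-07) and *Cct8* at -1.95 (SE 0.11, edgeR adjusted p = 9.34e-07). *Tuba1c* was lower by 5.80 on the log2 scale, at a mean of 3.58 CPM against 194 CPM, *Tuba1b* was at -1.99, *Pfdn4* at -2.44 and *Tuba8*, low in both groups, at -3.52. *Tuba1a* did not pass the test, at 891 against 754 CPM (log2 difference 0.20, SE 0.12, edgeR adjusted p = 0.155). *Ttc5* was higher at 47.1 against 24.0 CPM (0.94, SE 0.087, edgeR adjusted p = 1.76e-05). Dividing-cell markers summed to 33.4 to 38.5 CPM in astrocytes and 696 to 878 CPM in treated tumor cells, and their part in these differences was not tested.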

How the data were processed

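The authors deposited a table of raw read counts per gene for 9 libraries, made per the submitters' processing notes with TopHat on mm10 and HTSeq 0.6.1. Whether counting used strand, and how reads with several matches were treated, are not given in the sources used here. Depth was 22919523 to 34013875 reads per library, so that precision at *Tubb4a* in tumor cells was set by about 20 reads.

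Counts were tested in R 4.3.3 with edgeR 4.0.16 (filterByExpr, TMM, quasi-likelihood test, Benjamini-Hochberg over all genes tested, threshold 0.05), with the 2 groups compared in each fit. DESeq2 1.42.0 and limma 3.58.1 (prior count 2) were alternatives, with other scalings, filters, samples and a replicate block. Shares used exact permutation tests. The scripts were tested on simulated data. Per-gene lengths and sequences came from GENCODE vM21. Division by principal transcript length was chosen after seeing the data. Protein sequences were not used here.

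All 7 members were described, with up to 6 pathway genes of the largest change among those called, *Ttc5*, and the 5 genes most like the sum or *Tubb6* (mean of at least 10 CPM, pseudocount 0.1). The members and the pathway and marker lists were chosen with earlier results of these data known. The study's methods state fewer ex vivo samples per group than the 3 analysed here.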

Additional observations from a re-analysis of the deposited data

How the results depend on the processing

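Between BAL101553 and control, 3 isotypes were called in the reported fit. Their number was 5 with all 9 libraries in one model, and 0 to 5 when libraries were left out. The number of genes called over all genes varied too. It was 1860 of 12633 in the reported fit, 3022 of 15408 with all 9 libraries, and 1 to 1757 when libraries were left out. *Tubb6* was called in all 9 other settings, the sum in 9 of 9 and *Tubb5* in 8 of 9. When libraries were left out, the sum ran from -0.75 to -0.51 with adjusted p of 0.0145 to 0.187. The pathway list, with 11 genes called, gave 17 with DESeq2, 6 with library totals, 18 with all 9 libraries in one model, 7 with the replicate block, and 1 to 12 without single libraries. Over all genes, 2832 were called with DESeq2, 1882 with library totals, 1371 with the replicate block, and 193 to 1712 without single libraries. *Tubb4a*, at 15 to 23 reads per tumor library, ran from -0.37 to 0.23 when libraries were left out, so its direction is not settled. *Tubb3* between astrocytes and treated tumor cells ran from -0.71 to 0.012. The cause of these changes was not tested.

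Whether the replicate number pairs the libraries could not be settled. In their deviations from group means, same-numbered control and BAL101553 libraries correlated at 0.155, -0.00763 and 0.154 for numbers 1 to 3. The highest correlations with another number were 0.0421, 0.0990 and -0.0456. Deviations from means of 3 libraries are too few to decide it. With the replicate block 2 isotypes were called, *Tubb4b* and *Tubb6*, and *Tubb5* had an adjusted p of 0.0751. Between astrocytes and treated tumor cells the 6 called isotypes were called in every setting, and *Tubb3* joined them without BAL101553 library 1 and without that library and astrocyte library 2. Merging *Tubb2a* and *Tubb2b* into one row left 5 rows called. Depth limits *Tubb4a* in tumor cells and *Tubb6* in astrocytes.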

Other observations

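*Ing1*, which encodes a chromatin reader and not a tubulin, is the other non-platelet gene with an annotated coding transcript that opens with the same 4 codons' residues. Reads of *Ing1* were counted per gene, and the part from such a transcript was not tested. It read 68.0, 87.2 and 66.4 CPM in controls and 84.1, 75.7 and 77.1 CPM after BAL101553, with overlapping groups and a log2 fold change of 0.10 (SE 0.12, edgeR adjusted p = 0.589). In astrocytes it read 24.7, 26.2 and 25.8 CPM, a log2 difference of -1.66 from treated tumor cells (SE 0.086, edgeR adjusted p = 6.25e-07). *Tubb1*, the platelet isotype, had 0 reads in all 3 control libraries, 0, 0 and 1 after BAL101553, and 3, 7 and 3 in astrocytes. The ratio of *Tubb2b* to *Tubb2a* reads was 1.92, 1.51 and 1.85 in controls, 1.44, 1.67 and 1.04 after BAL101553 and 2.27, 2.09 and 2.11 in astrocytes, with the shared read windows of that pair as a limit on it.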
